A study of Homo sapiens with 6 samples.

Results

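The human mitochondrial genome is a small circular DNA that encodes 13 mRNAs, 2 rRNAs and 22 tRNAs. These 37 genes, taken as every row whose Ensembl identifier maps to a symbol starting with MT-, were followed among the 69292 gene IDs measured in MDA-MB-231 cells, an established human triple-negative breast cancer line. All 37 were found in the table. The study set derivatives resistant to drugs against mTOR beside the cells they came from. The groups are everolimus-resistant cells (DR_EVE in the titles and DREVE in the protocol, kept in 20 µM everolimus), ridaforolimus-resistant cells (DR_RIDA in the titles and DRRIDA in the protocol, kept in 30 µM ridaforolimus) and parental cells, with 2 libraries each. Both drugs are analogs of rapamycin, which inhibits the mTOR kinase as a complex with the protein FKBP12. The derivatives were cultured for several months in drug, and all groups shared the same medium with serum. The protocol gives parental cells no drug, while a label field gives them DMSO. Each resistant line is a single derivative, so resistance, the drug in the medium and drift in culture cannot be told apart. Nothing in the labels says whether the 2 libraries of a group came from separate cultures, so p-values measure only the spread between these libraries, which may be technical.

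Mitochondrial DNA is transcribed in full on both strands. The heavy-strand RNA carries the rRNAs, most tRNAs and all mRNAs but MT-ND6, which is read from the opposite strand with the remaining tRNAs. The tRNAs lie between the other genes and are cut out by the mitochondrial RNase P and by the nuclease ELAC2, which frees the mRNAs. The polymerase MTPAP then adds short poly(A) tails to most of the mRNAs. The proteins are core subunits of respiratory complexes I, III and IV and of the ATP synthase (complex V), and each works only together with subunits that the nucleus encodes. In many cell types mTOR signalling promotes the translation and transcription of nuclear genes for mitochondrial function.

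The tails matter for these mRNAs, because 6 of the 13 genes have a length that is not a multiple of 3 and end before a whole stop codon. The ends of some of the mRNAs that the results turn on are shown for this reason, from GENCODE 29 transcripts on GRCh38. Each line gives the last 30 bases, 5′ to 3′, with the bases after the last sense codon in capitals.
MT-ND1 (chrM:4233-4262, plus strand): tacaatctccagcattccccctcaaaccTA
MT-ND2 (chrM:5482-5511, plus strand): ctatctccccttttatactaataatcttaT
MT-CYB (chrM:15858-15887, plus strand): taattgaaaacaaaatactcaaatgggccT
MT-CO2 (chrM:8240-8269, plus strand): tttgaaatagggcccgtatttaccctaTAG
In MT-ND1, MT-ND2 and MT-CYB the bases of a UAA stop codon that are missing from the gene are supplied by the tail, while MT-CO2 ends in a whole stop codon.

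Everolimus-resistant cells held the lowest share of mitochondrial counts. The 37 genes took 2.38% and 2.15% of all counts in everolimus-resistant libraries, 2.42% and 3.19% in ridaforolimus-resistant libraries, and 4.38% and 3.001% in parental libraries (replicates 1 and 2). Both everolimus-resistant libraries lay below both parental ones, while the ridaforolimus-resistant and parental groups overlapped. The mean share was 2.26 ± 0.163% in everolimus-resistant, 2.81 ± 0.545% in ridaforolimus-resistant and 3.69 ± 0.972% in parental cells (SD, n = 2 each), and the widest 95% Wilson interval of a library spanned 0.022 percentage points, for counting error only. The difference from parental cells was -1.43 percentage points in the everolimus line and -0.882 in the ridaforolimus line. In an exact two-sided permutation test 2 against 2 libraries cannot go below p = 0.33, which the everolimus line reached, and the ridaforolimus line gave p = 0.67. Without parental replicate 1 the differences were -0.740 and -0.195 points, and without parental replicate 2 they were -2.11 and -1.57. In RNA from whole cultures, fewer mitochondrial genomes and less RNA from each cannot be told apart.

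**Figure D1:**
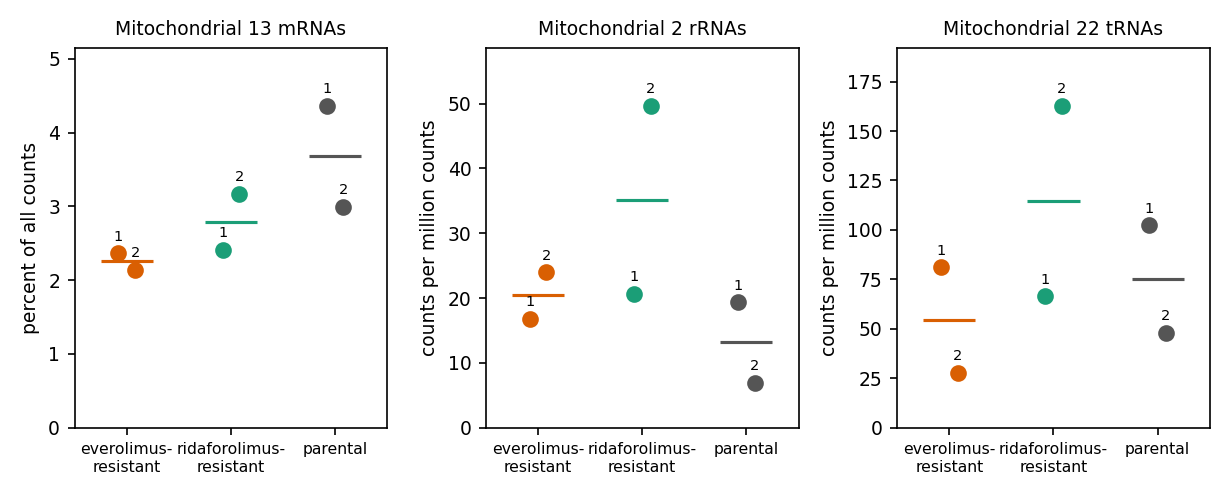
Share of counts from the 13 mitochondrial mRNAs (percent of all counts) and levels of the 2 rRNAs and 22 tRNAs (counts in 1000000 counts) in each library; points are libraries, numbered by replicate, and lines are group means of 2 libraries. The mRNA points of everolimus-resistant cells lie below both parental points, and ridaforolimus-resistant replicate 2 is highest for the rRNAs and the tRNAs.

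Total counts ranged from 13134567 to 15556246 per library. The markers of this mesenchymal line were present, with VIM at 302 to 646 CPM and AXL at 996 to 1558 CPM, and S100A4 at 5.26 to 18.0 CPM was the lowest of the 8 expected ones. Of the markers expected to be low, ESR1 and PGR stayed under 1 CPM, while GATA3 reached 5.88 CPM, FOXA1 7.93 CPM and ERBB2 44.3 to 62.9 CPM, and the keratin KRT8 stood at 263 to 428 CPM. The summed level of 10 markers of blood, endothelial and fibroblast cells was 4.49 to 12.0 CPM in everolimus-resistant, 2.13 to 7.23 CPM in ridaforolimus-resistant and 8.66 to 12.6 CPM in parental libraries, with PECAM1 at up to 11.5 CPM, and CD3E and LUM were at 0. Their part in the results was not tested. The labels name a kit that selects polyadenylated RNA, yet RNAs that lack a poly(A) tail were abundant. RN7SL1, the RNA of the signal recognition particle, took 2.07% to 3.32% of all counts and RMRP, the RNA of RNase MRP, took 0.454% to 0.615%, whereas the mitochondrial rRNAs took at most 0.00497%. The nuclear rRNA genes in the table, 548 in all, were also low, at 0.00127% to 0.00175%. The 24 listed nuclear RNAs without a tail, histone mRNAs included, took 3.15% and 3.47% in everolimus-resistant, 3.76% and 2.77% in ridaforolimus-resistant and 3.22% and 4.20% in parental libraries. Their part in the mitochondrial shares was not tested.

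Of the 37 genes, 17 passed the filter on low counts: the 13 mRNAs, both rRNAs and the tRNAs MT-TP and MT-TF. Levels are given in CPM, which relates a count to 1000000 counts of the library size scaled by TMM, and compared between genes only per kilobase of gene. Ratios of counts between genes of a library are given without scaling for length, so they do not compare levels. Per kilobase, averaged over the 6 libraries, MT-CO2 was highest at 5199 CPM, followed by MT-CO3 at 4028, MT-CO1 at 3879 and MT-ND4 at 3698 CPM. MT-ATP8, MT-ND3 and MT-ND6 were the lowest mRNAs at 914, 823 and 752 CPM per kilobase of the whole gene. With its whole count divided by only the bases not shared with MT-ATP6, MT-ATP8 stood at 1176 CPM per kilobase, above MT-ND5 at 1131. That value holds only if the counting dropped every read in the shared bases, which is not known.

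No mitochondrial mRNA passed the threshold in either resistant line. All 13 estimates were below 0 in both, against a background of 47.6% of genes below 0 in the everolimus and 48.7% in the ridaforolimus line. Those of the everolimus line ran from -1.41 to -0.46 on the log2 scale with a median of -0.70, where all 21223 genes tested had a median of 0.02. In the ridaforolimus line they ran from -1.03 to -0.03 with a median of -0.46, where all genes had 0.015. Both lines were set against the same parental libraries, so their estimates share those libraries' values. The 13 mRNAs come from the same genome and moved together between the parental and between the ridaforolimus-resistant libraries. They are not independent genes, so counts of them do not add up separate results. For the everolimus line 0 of 13 passed an adjusted p of 0.05 over all genes tested (edgeR's quasi-likelihood test, Benjamini-Hochberg), against a background of 0.00471% of genes called, and 7 of 13 were lower at an unadjusted p under 0.05, against 4.53% of genes. For the ridaforolimus line 0 of 13 passed, against 0.32% of genes, and 4 of 13 were lower at an unadjusted p under 0.05, against 7.17%. On the same genes DESeq2 called 1 mRNA, MT-ND2, in each line, against 0.751% of genes in the everolimus and 3.07% in the ridaforolimus line. These DESeq2 shares are over the 19577 and 18754 genes to which it gave an adjusted p. By limma-voom 0 passed in each, against 0.00471% and 0.339% of genes.

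In the levels of single libraries, 12 of the 13 mRNAs had both everolimus-resistant values below both parental ones, against a background of 20.5% of genes. MT-ND3 was the exception. In the ridaforolimus line 6 of 13 did so, against 24.3% of genes. These were MT-ND2, MT-CO1, MT-CO3, MT-ND5, MT-ND6 and MT-CYB. As shares of all counts, without TMM scaling, MT-ND5 and MT-ND6 overlapped in the everolimus line and MT-CO1 in the ridaforolimus line. The parental libraries themselves stood apart from each other, with all 13 mRNAs higher in replicate 1, by 1.27 to 2.08 times (median 1.56). In the ridaforolimus line replicate 2 was the higher library for all 13, with a ratio of replicate 1 to replicate 2 of 0.680 to 0.994, and the everolimus-resistant libraries split 7 to 6 with a median ratio of 1.03. Without parental replicate 1 the median of the 13 mRNAs was -0.32 in the everolimus and -0.17 in the ridaforolimus line, and in the ridaforolimus line 8 of 13 estimates were then below 0, with MT-CO2, MT-ATP8, MT-ATP6, MT-ND3 and MT-ND4L at 0.07 to 0.40. Without ridaforolimus-resistant replicate 1 the median in that line was -0.29 and 11 of 13 were below 0.

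**Figure D2:**
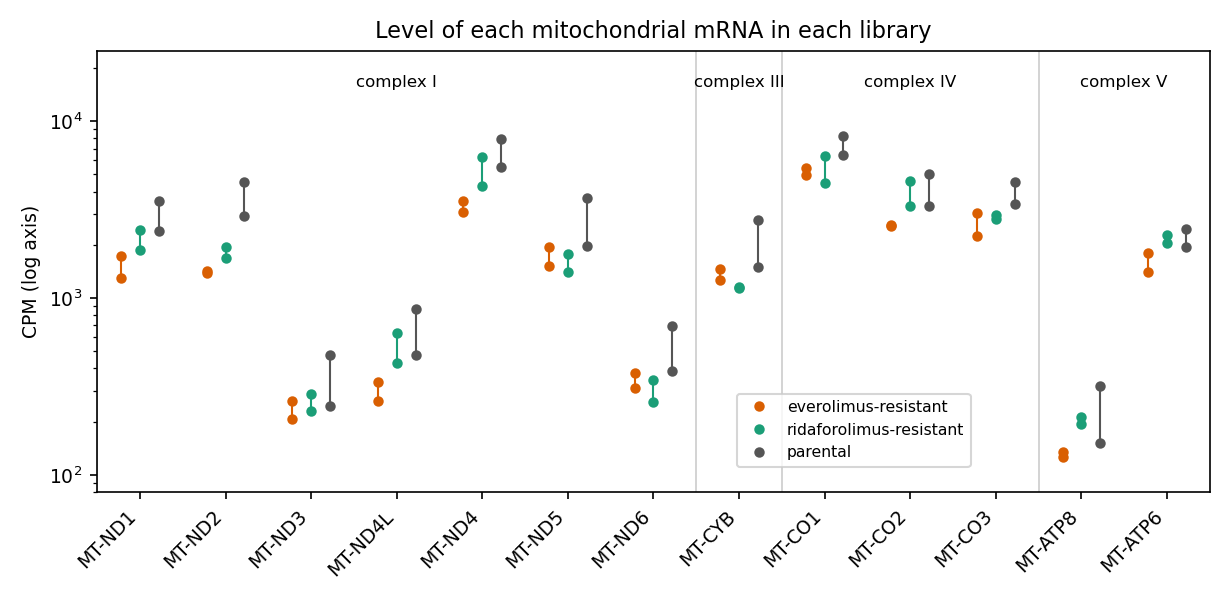
Level of the 13 mitochondrial mRNAs in CPM (log axis) in each library, by respiratory complex; each point is a library and a line joins the 2 libraries of a group. MT-ND2 shows the clearest gap, with both resistant lines between 1384 and 1945 CPM and both parental libraries at 2899 CPM or above.

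MT-ND2, a membrane subunit of the proton-pumping arm of complex I, had the lowest estimate of the 13 mRNAs in both lines. Its level was 1420 and 1384 CPM in everolimus-resistant, 1694 and 1945 CPM in ridaforolimus-resistant and 4529 and 2899 CPM in parental libraries. All 4 resistant libraries lay below both parental ones. Its estimate against parental cells was -1.41 ± 0.26 log2 (± SE; 95% interval -1.99 to -0.82) for everolimus resistance and -1.03 ± 0.25 (-1.61 to -0.45) for ridaforolimus resistance. Both missed the threshold in edgeR's quasi-likelihood test (adjusted p = 0.208 and 0.149), while DESeq2 gave an adjusted p of 3.04e-04 and 0.0119. Leaving out libraries or changing the settings moved the estimate between -1.69 and -1.05 in the everolimus and between -1.32 and -0.68 in the ridaforolimus line.

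MT-ND1, whose protein lies where the membrane arm of complex I meets the arm that accepts electrons from NADH, was next to MT-ND2 along the genome but differed less. It had 1721 and 1301 CPM in everolimus-resistant, 1869 and 2430 CPM in ridaforolimus-resistant and 3516 and 2409 CPM in parental libraries. The everolimus-resistant values lay below both parental values, and the higher ridaforolimus-resistant value lay just above the lower parental one. The log2 fold changes were -0.97 ± 0.27 in the everolimus and -0.46 ± 0.27 in the ridaforolimus line (adjusted p = 0.437 and 0.470).

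MT-ND4L and MT-ND4 encode neighbouring membrane subunits of complex I and are carried on a shared mRNA, with 7 bases of the genes in common. MT-ND4 had 3517 and 3051 CPM in everolimus-resistant, 4310 and 6234 CPM in ridaforolimus-resistant and 7927 and 5536 CPM in parental libraries. MT-ND4L had 337 and 261 CPM in everolimus-resistant, 430 and 633 CPM in ridaforolimus-resistant and 865 and 479 CPM in parental libraries. For both genes the everolimus-resistant libraries were the lowest of all 6, and the ridaforolimus-resistant and parental libraries overlapped. In the everolimus line the log2 fold changes were -1.04 ± 0.27 and -1.17 ± 0.32 for MT-ND4 and MT-ND4L (adjusted p = 0.419 and 0.437), and in the ridaforolimus line they were -0.35 ± 0.27 and -0.34 ± 0.32 (adjusted p = 0.589 and 0.671).

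MT-ND5, the outermost pumping subunit of complex I, and MT-ND6, a further membrane subunit, face each other on opposite strands at adjoining positions. MT-ND5 had 1936 and 1521 CPM in everolimus-resistant, 1408 and 1776 CPM in ridaforolimus-resistant and 3678 and 1974 CPM in parental libraries. MT-ND6 had 376 and 310 CPM in everolimus-resistant, 258 and 343 CPM in ridaforolimus-resistant and 695 and 387 CPM in parental libraries. For both genes every resistant CPM value lay below both parental ones, although parental replicate 2 and everolimus-resistant replicate 1 were close. Without TMM scaling, as shares of all counts, everolimus-resistant replicate 1 lay above parental replicate 2 for both genes, at 0.0395% and 0.0378% for MT-ND6. The log2 fold changes of MT-ND5 were -0.71 ± 0.31 in the everolimus and -0.83 ± 0.31 in the ridaforolimus line (adjusted p = 0.568 and 0.290), and those of MT-ND6 were -0.66 ± 0.30 and -0.85 ± 0.30 (adjusted p = 0.582 and 0.269). Within a library MT-ND5 had 4.90 to 5.45 times the count of MT-ND6, a narrow range over 6 libraries in which MT-ND6 itself ran from 258 to 695 CPM. The strand setting of the counting is not given in the sources used here, and reads of MT-ND6 cannot then be told apart from reads of heavy-strand RNA that runs through its position.

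MT-ND3, a small subunit at a hinge of complex I, had 207 and 263 CPM in everolimus-resistant, 229 and 287 CPM in ridaforolimus-resistant and 478 and 245 CPM in parental libraries. Parental replicate 1 stood far above the other libraries, and the remaining values overlapped. Its log2 fold changes were -0.62 ± 0.32 and -0.49 ± 0.32 in the everolimus and ridaforolimus lines (adjusted p = 0.623 and 0.521).

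MT-CYB, cytochrome b, is the mitochondrially encoded subunit of complex III. It had 1260 and 1460 CPM in everolimus-resistant, 1142 and 1149 CPM in ridaforolimus-resistant and 2748 and 1505 CPM in parental libraries. All resistant libraries lay below both parental ones, with everolimus-resistant replicate 2 just under parental replicate 2. Its log2 fold change stood at -0.65 ± 0.29 in the everolimus and -0.89 ± 0.29 in the ridaforolimus line (adjusted p = 0.575 and 0.239).

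The genes of complex IV, cytochrome c oxidase, form its catalytic core. MT-CO1, which holds the site of oxygen reduction, had 5430 and 4938 CPM in everolimus-resistant, 4447 and 6353 CPM in ridaforolimus-resistant and 8292 and 6431 CPM in parental libraries. MT-CO2, which takes electrons from cytochrome c, had 2552 and 2581 CPM in everolimus-resistant, 3312 and 4572 CPM in ridaforolimus-resistant and 5018 and 3301 CPM in parental libraries. MT-CO1 thus had all resistant CPM values below both parental ones. As a share of all counts, without TMM scaling, ridaforolimus-resistant replicate 2 lay above parental replicate 2 for MT-CO1. For MT-CO2 only the everolimus-resistant values lay below both parental ones, and the ridaforolimus-resistant values lay within the parental range. MT-CO3 had 2251 and 3007 CPM in everolimus-resistant, 2810 and 2957 CPM in ridaforolimus-resistant and 4534 and 3388 CPM in parental libraries, again with all resistant libraries below. Against parental cells, the everolimus line's log2 fold changes of MT-CO1, MT-CO2 and MT-CO3 were -0.51 ± 0.25, -0.70 ± 0.27 and -0.59 ± 0.24 (adjusted p = 0.617, 0.531 and 0.543). In the ridaforolimus line they were -0.45 ± 0.25, -0.08 ± 0.27 and -0.46 ± 0.24 (adjusted p = 0.459, 0.926 and 0.426).

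MT-ATP8 and MT-ATP6 encode membrane subunits of the ATP synthase and share a single mRNA, in which their genes overlap by 46 bases. The shared bases are shown because reads within them belong to both genes and a counting step may drop or split them.
MT-ATP8 and MT-ATP6 overlap (chrM:8527-8572, plus strand): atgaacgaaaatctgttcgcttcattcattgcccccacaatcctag
The first 3 bases are the start codon of MT-ATP6, and the last 3 complete the stop codon of MT-ATP8. MT-ATP6 had 1397 and 1798 CPM in everolimus-resistant, 2052 and 2266 CPM in ridaforolimus-resistant and 2455 and 1940 CPM in parental libraries. MT-ATP8 had 127 and 135 CPM in everolimus-resistant, 193 and 212 CPM in ridaforolimus-resistant and 316 and 152 CPM in parental libraries. Both had the everolimus-resistant libraries lowest, and the ridaforolimus-resistant libraries between the parental ones. The log2 fold change of MT-ATP6 was -0.46 ± 0.23 in the everolimus and -0.03 ± 0.23 in the ridaforolimus line (adjusted p = 0.613 and 0.974), and that of MT-ATP8 was -0.84 ± 0.32 and -0.21 ± 0.31 (adjusted p = 0.531 and 0.804). The estimate of MT-ATP6 in the ridaforolimus line had the other sign with total counts as library size, at 0.03, with at least 5 CPM required in 2 libraries, at 0.02, and without ridaforolimus-resistant replicate 1, at 0.04. The count of MT-ATP6 was 10.6 to 13.3 times that of MT-ATP8 in 5 libraries and 7.76 times in parental replicate 1. These ratios are not scaled for the gene lengths of 681 and 207 bases. Per kilobase of the whole gene, MT-ATP6 averaged 2915 CPM and MT-ATP8 914 CPM.

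**Figure D3:**
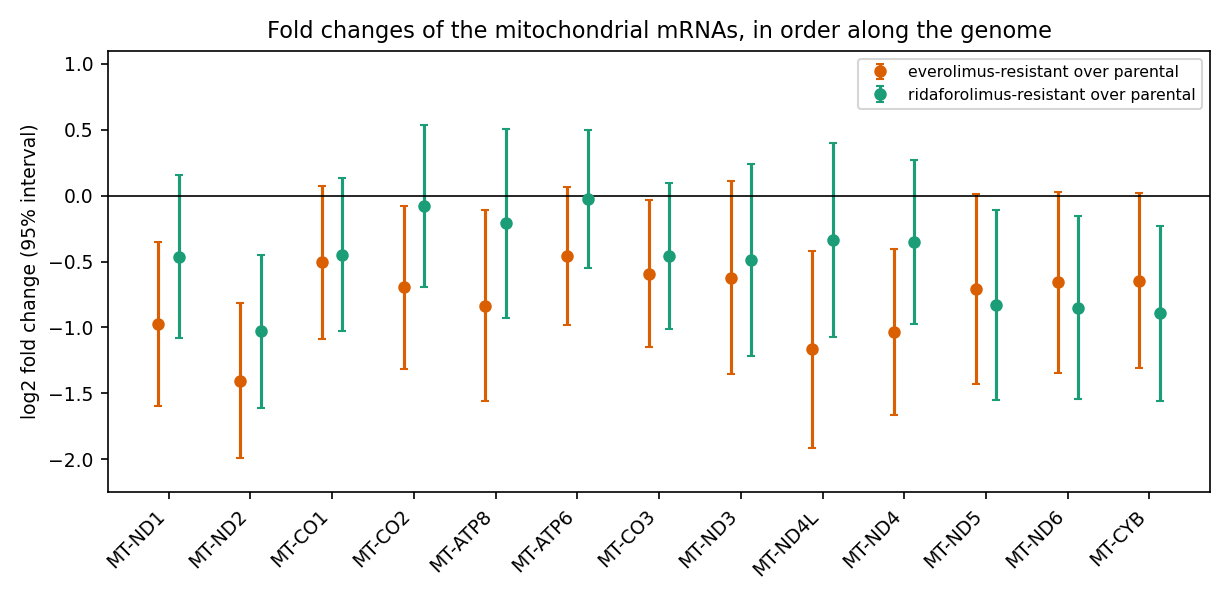
Log2 fold change over parental cells, with 95% interval, of the 13 mitochondrial mRNAs in order along the genome, for the everolimus-resistant and the ridaforolimus-resistant line (2 libraries per group). Every point lies below 0, with MT-ND2 lowest in both lines, and the ridaforolimus points of MT-CO2 and MT-ATP6 lie nearest to 0.

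The members did not keep the same proportions, as their shares of the counts of the 13 mRNAs show. These shares do not depend on the scaling of a library, but they sum to a whole, so a lower share of a gene raises those of others. MT-ND2 made up 6.30% and 6.29% of the pool in everolimus-resistant, 7.01% and 6.24% in ridaforolimus-resistant and 10.1% and 9.46% in parental libraries. All 4 resistant libraries lay well below both parental ones, and the parental replicates, which differed 1.56-fold in level of this gene, were close in its share. The mean share was 0.645 times the parental share in the everolimus line and 0.679 times in the ridaforolimus line. The count of MT-ND2 was 0.825 and 1.06 times that of its neighbour MT-ND1 in everolimus-resistant, 0.907 and 0.800 times in ridaforolimus-resistant and 1.29 and 1.20 times in parental libraries.

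Elsewhere along the genome the lines differed in the make-up of the pool. In everolimus-resistant libraries MT-CO1 took 24.1% and 22.4% of the pool, against 18.4% and 20.98% in parental libraries. MT-ND4 took 15.6% and 13.9% in everolimus-resistant libraries, against 17.6% and 18.1% in parental libraries. In ridaforolimus-resistant libraries MT-CO2 took 13.7% and 14.7%, against 11.1% and 10.8% in parental libraries, and MT-ATP6 took 8.50% and 7.27%, against 5.45% and 6.33%. In the everolimus line 6 of 13 shares did not overlap with the parental ones: MT-ND1, MT-ND2, MT-ND4L and MT-ND4 were below and MT-CO1 and MT-CO2 above. In the ridaforolimus line 7 of 13 did not overlap: MT-ND1, MT-ND2, MT-ND5, MT-ND6 and MT-CYB were below and MT-CO2 and MT-ATP6 above. MT-ND1 was barely below, at 7.737% and 7.798% against 7.805% and 7.861% in parental libraries. The share of MT-CO2 was thus above both parental libraries in both lines, with 11.3% and 11.7% in everolimus-resistant libraries. These shares exist only within the 13 mRNAs, so no share of all genes stands beside these counts, and the differences in make-up were not tested. The last genes of the heavy-strand RNA and MT-ND6 had lower shares in the ridaforolimus line than in either parental library. MT-ND5 took 5.83% and 5.70% in ridaforolimus-resistant libraries, against 8.16% and 6.44% in parental libraries, and MT-CYB took 4.73% and 3.69%, against 6.10% and 4.91%. By complex, the 7 mRNAs of complex I made up 39.5 ± 3.87% of the pool in everolimus-resistant, 43.0 ± 1.12% in ridaforolimus-resistant and 46.8 ± 1.90% in parental cells (SD, n = 2 each), and the 3 of complex IV made up 46.6 ± 1.70%, 44.1 ± 0.566% and 41.2 ± 2.26% in the same order of groups.

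**Figure D4:**
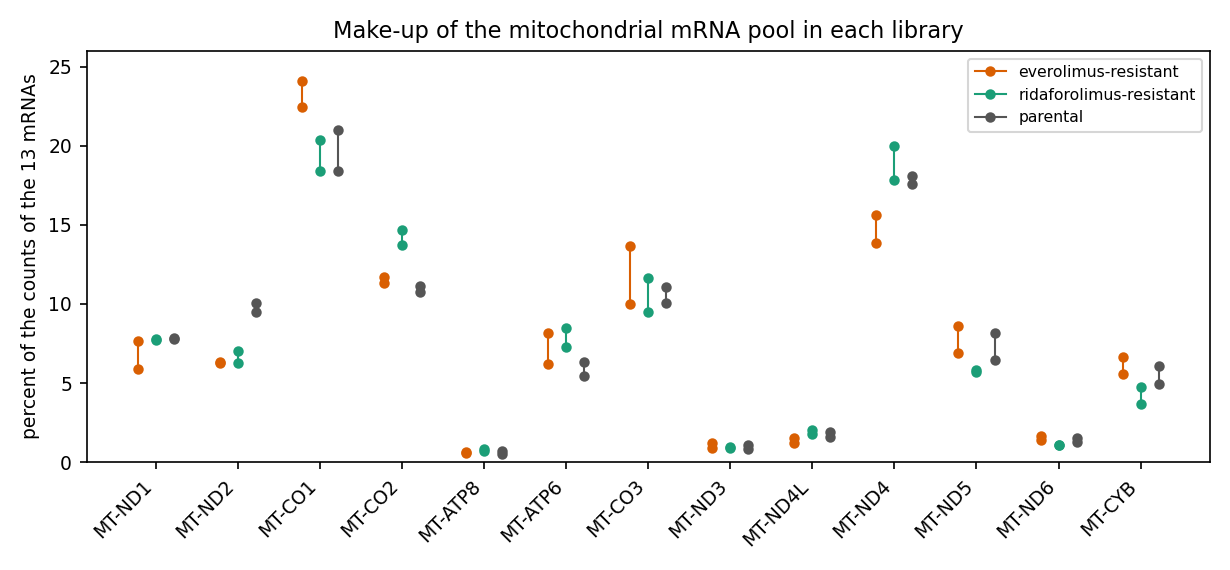
Share of each mRNA in the counts of the 13 mitochondrial mRNAs (percent), in order along the genome, in each library; points are libraries and lines join the 2 libraries of a group. MT-ND2 lies near 6% to 7% in both resistant lines and between 9.46% and 10.1% in parental libraries.

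Set directly against everolimus-resistant cells, ridaforolimus-resistant cells had 10 of 13 mRNA estimates above 0 and 3 below 0, against a background of 51.7% of genes below 0, with a median of 0.38 where all genes had -0.02. The doses of the drugs differed (30 and 20 µM), so this comparison is not matched for dose. None of the 13 passed (lowest adjusted p = 0.306, edgeR's quasi-likelihood test), against a background of 0.744% of genes called, while 3 of 13 were higher at an unadjusted p under 0.05, against 7.58%. By DESeq2 0 passed, against 3.36% of the 19577 genes to which it gave an adjusted p, and by limma-voom 0 passed, against 0.532%. The highest estimates were those of MT-ND4L (0.83 ± 0.32), MT-ND4 (0.68 ± 0.27), MT-ATP8 (0.63 ± 0.31) and MT-CO2 (0.62 ± 0.27). MT-CYB (-0.25 ± 0.29), MT-ND6 (-0.19 ± 0.30) and MT-ND5 (-0.12 ± 0.31) were the 3 below 0, and their genes adjoin on the genome, MT-ND6 on the opposite strand. Both ridaforolimus-resistant libraries lay above both everolimus-resistant ones for 7 of 13 mRNAs, against a background of 20.9% of genes, and below them for MT-CYB alone, against 20.4%. Without everolimus-resistant replicate 1 the median was 0.25 and MT-ND5 stood at 0.05, and without ridaforolimus-resistant replicate 2 the median was 0.29 and 5 of 13 estimates were below 0.

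The 2 rRNAs, MT-RNR1 of the small and MT-RNR2 of the large mitochondrial ribosomal subunit, were rare, although they are usually the most abundant mitochondrial RNAs in cells. MT-RNR2 had 10.8 and 12.7 CPM in everolimus-resistant, 13.8 and 35.6 CPM in ridaforolimus-resistant and 14.0 and 5.14 CPM in parental libraries. MT-RNR1 had 5.22 and 12.0 CPM in everolimus-resistant, 6.86 and 13.2 CPM in ridaforolimus-resistant and 6.04 and 1.97 CPM in parental libraries. Unlike the mRNAs they had estimates above 0 in both lines. In the everolimus line the log2 fold changes were 0.30 ± 0.53 for MT-RNR2 and 1.11 ± 0.60 for MT-RNR1 (adjusted p = 0.912 and 0.636), and in the ridaforolimus line they were 1.37 ± 0.53 and 1.33 ± 0.60 (adjusted p = 0.300 and 0.356). For MT-RNR1 both ridaforolimus-resistant libraries lay above both parental ones, against 25.1% of genes, and the other comparisons of rRNAs with parental cells overlapped. For MT-RNR2 both ridaforolimus-resistant libraries also lay above both everolimus-resistant ones, against 20.9% of genes. Single libraries moved these estimates widely. In fits without a library MT-RNR2 ran from -0.25 (without parental replicate 2) to 1.19 (without parental replicate 1) in the everolimus line and from 0.54 (without ridaforolimus-resistant replicate 2) to 2.25 (without parental replicate 1) in the ridaforolimus line. MT-RNR1 ran from 0.38 (without everolimus-resistant replicate 2) to 2.12 (without parental replicate 1) in the everolimus line and from 0.73 (without parental replicate 2) to 2.33 (without parental replicate 1) in the ridaforolimus line. These counts are what remained after the library preparation and the counting, so they do not measure the rRNA content of the cells.

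The 22 tRNA genes, of 59 to 75 bases, held 6643 counts in all 6 libraries together, and 97.9% of these came from MT-TP, the tRNA for proline. MT-TP was the only tRNA with at least 10 counts in every library. Its gene lies on the light-strand transcript and is the first gene that light-strand RNA meets after the control region, where transcription starts. Its sequence is shown as that of the tRNA gene that held nearly all tRNA counts, without the CCA end that is added after transcription.
MT-TP (chrM:15956-16023, minus strand): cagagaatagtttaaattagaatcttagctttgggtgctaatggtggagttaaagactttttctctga
MT-TP had 76.1 and 28.0 CPM in everolimus-resistant, 64.4 and 158 CPM in ridaforolimus-resistant and 102 and 48.4 CPM in parental libraries. The groups overlapped, and the replicates of each differed by more than 2-fold (ratios of replicate 1 to replicate 2 of 2.72, 0.407 and 2.10 in the same order of groups). The log2 fold changes were -0.53 ± 0.57 in the everolimus and 0.57 ± 0.56 in the ridaforolimus line (adjusted p = 0.833 and 0.686), and both hung on single libraries, at 0.10 in the everolimus line without parental replicate 1, 0.02 there without everolimus-resistant replicate 2 and -0.21 in the ridaforolimus line without ridaforolimus-resistant replicate 2. As for MT-ND6, its reads cannot be told apart from those of heavy-strand RNA that runs through its position. Relative to MT-ND6, its count was 0.203 and 0.0901 in everolimus-resistant, 0.249 and 0.462 in ridaforolimus-resistant and 0.146 and 0.125 in parental libraries.

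The other 21 tRNAs shared 139 counts. MT-TF, the tRNA for phenylalanine at the start of the heavy-strand RNA, had 91 of them, 39 in parental replicate 1 alone, with log2 fold changes of -1.56 ± 0.86 in the everolimus and -0.51 ± 0.79 in the ridaforolimus line (adjusted p = 0.646 and 0.813). Without that library these were 0.64 and 1.68. MT-TY had 21 counts, MT-TV 17, MT-TM 6, MT-TC 2, and MT-TH and MT-TL1 1 each. The remaining 14 had 0 counts in every library, which allows up to 0.0360 counts in 1000000 over the 6 libraries together, counting error only.

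Nuclear chromosomes carry copies of mitochondrial DNA, whose reads the counting can confuse with those of the mitochondrial genes. Of 404 such pseudogenes in the table, 3 averaged at least 10 CPM, and all 3 lie close together on chromosome 1. MTND2P28 was 98.4% identical to MT-ND2, MTCO1P12 98.7% identical to MT-CO1 and MTATP6P1 98.5% identical to MT-ATP6, with identical runs of up to 266, 245 and 141 bases. The 60 bases in which MT-ND2 and its copy differ most, at 4 positions in capitals, show how alike they are.
MT-ND2 (chrM:4899-4958, plus strand): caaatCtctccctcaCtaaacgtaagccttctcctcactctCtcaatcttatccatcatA
MTND2P28 (chr1:630069-630128, plus strand): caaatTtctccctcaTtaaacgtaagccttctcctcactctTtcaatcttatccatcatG
MTND2P28 had 6.45 and 6.08 CPM in everolimus-resistant, 9.15 and 11.5 CPM in ridaforolimus-resistant and 27.1 and 12.2 CPM in parental libraries, a small fraction of MT-ND2. Its log2 fold changes were -1.65 ± 0.38 in the everolimus and -0.93 ± 0.37 in the ridaforolimus line (adjusted p = 0.33 and 0.31), beside -1.41 and -1.03 for MT-ND2. MTCO1P12 stood at -0.52 and -0.47, beside -0.51 and -0.45 for MT-CO1, and MTATP6P1, at 178 to 351 CPM the most abundant copy, stood at -0.59 and 0.08, beside -0.46 and -0.03 for MT-ATP6. With the copies counted among the mitochondrial genes, the share differed from parental cells by -1.44 points in the everolimus and -0.882 points in the ridaforolimus line.

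The nuclear partners of the mitochondrial proteins had estimates near 0 in the everolimus line and mostly below 0 in the ridaforolimus line. In the everolimus line 21 of 37 nuclear complex I subunits were below 0 (median -0.04), 3 of 9 of complex III (0.06), 7 of 11 of complex IV (-0.14) and 9 of 18 of complex V (-0.02), where 47.6% of all genes were below 0. In the ridaforolimus line 33 of 37 subunits of complex I were below 0 (median -0.30), 9 of 9 of complex III (-0.39), 8 of 11 of complex IV (-0.27) and 15 of 18 of complex V (-0.36), where 48.7% of all genes were. Complex II, which has no mitochondrially encoded subunit, had 1 of 4 below 0 in the everolimus (median 0.15) and 4 of 4 in the ridaforolimus line (-0.36). No subunit passed in either line. Named as the largest estimates of their lists at 10 CPM or more, in the ridaforolimus line NDUFA1, an accessory subunit needed to assemble complex I, stood at -1.22 ± 0.26 (adjusted p = 0.105) and COX7B, an accessory subunit of complex IV, at 0.87 ± 0.19 (adjusted p = 0.118). In the everolimus line the ATP synthase subunit ATP5MG stood at 0.60 ± 0.23 and its inhibitor ATP5IF1 at -0.47 ± 0.25 (adjusted p = 0.531 and 0.636).

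**Figure D5:**
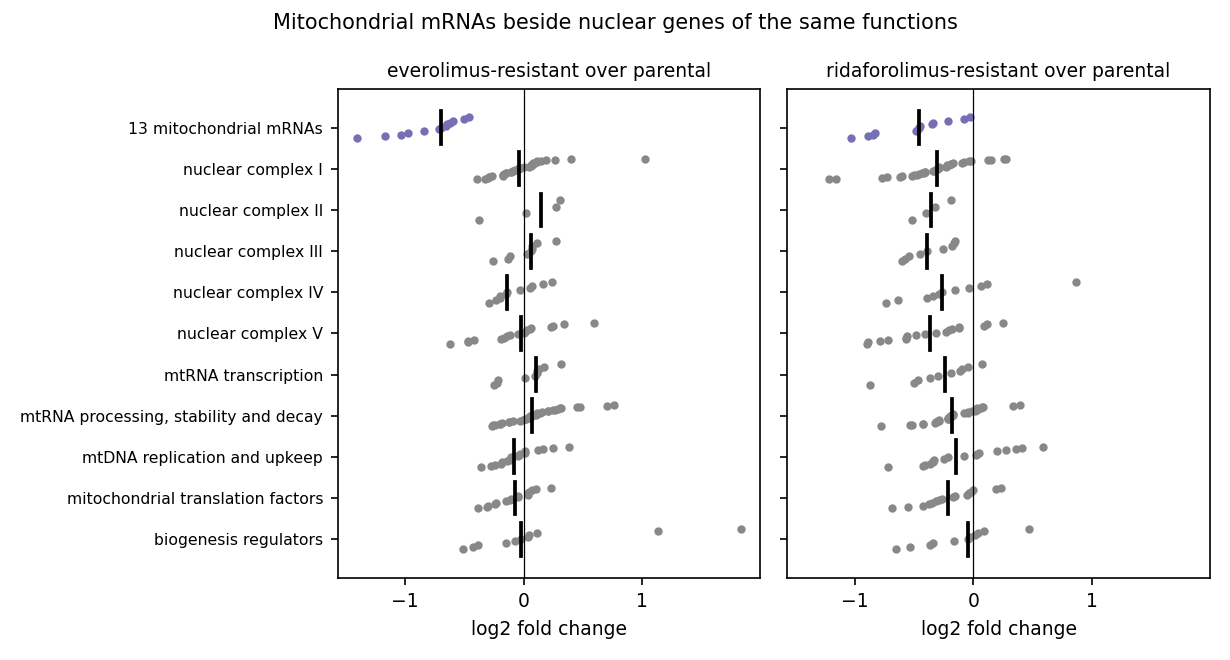
Log2 fold change over parental cells of the 13 mitochondrial mRNAs and of nuclear genes of the respiratory complexes and of mitochondrial gene expression, in the everolimus-resistant (left) and ridaforolimus-resistant line (right); each point is a tested gene and each bar the median of its list. The medians of the nuclear complexes lie between -0.14 and 0.15 on the left and between -0.39 and -0.27 on the right, beside -0.70 and -0.46 for the mitochondrial mRNAs.

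Genes that transcribe mitochondrial DNA did not pass in either line. POLRMT, the mitochondrial RNA polymerase, stood at -0.25 ± 0.20 in the everolimus and -0.50 ± 0.20 in the ridaforolimus line (adjusted p = 0.763 and 0.304). TFAM, which packages mitochondrial DNA and opens its promoters, stood at 0.11 and -0.05, its partner factor TFB2M at 0.11 and -0.30, the elongation factor TEFM at 0.31 and -0.11 and MTERF1, which binds a termination site behind the rRNA genes, at -0.23 and -0.37. Of the 10 listed transcription genes, 3 were below 0 in the everolimus (median 0.10) and 9 in the ridaforolimus line (-0.24), with MTERF3, a repressor of mitochondrial transcription in mice, lowest at -0.87 ± 0.27 (adjusted p = 0.214). For TFAM, TFB2M and TEFM only ridaforolimus-resistant replicate 2 lay below both parental libraries, and replicate 1 lay above both. TFAM had 166 and 95.1 CPM there, beside 118 and 152 CPM in parental libraries. For POLRMT, MTERF1 and MTERF3 both ridaforolimus-resistant libraries lay below both parental ones, against 24.3% of genes.

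The 35 tested genes of mitochondrial RNA processing, stability and decay had 11 estimates below 0 in the everolimus (median 0.07) and 25 in the ridaforolimus line (-0.18), with 0 past the threshold. LRPPRC, which binds and stabilises mitochondrial mRNAs, stood at 0.05 ± 0.20 and -0.17 ± 0.20 (adjusted p = 0.963 and 0.746), and its partner SLIRP at -0.27 ± 0.30 and -0.78 ± 0.31 (adjusted p = 0.845 and 0.303). The pseudouridine synthase RPUSD4, at 0.71 ± 0.21 (adjusted p = 0.447), had the largest estimate of the list in the everolimus line among genes at 10 CPM or more. For the upkeep of mitochondrial DNA, the polymerase POLG stood at -0.03 and 0.04 and the helicase TWNK at 0.01 and -0.08 in the everolimus and ridaforolimus lines. TWNK had 70.7 and 44.0 CPM in ridaforolimus-resistant libraries, beside 60.4 and 60.9 CPM in parental libraries. The list of upkeep genes had 12 of 18 estimates below 0 in the everolimus (median -0.08) and 10 of 18 in the ridaforolimus line (-0.15). The translation factors had 10 of 16 (-0.07) and 14 of 16 (-0.22). None of either passed, with a lowest adjusted p of 0.199 over both lists and lines.

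Among regulators of mitochondrial biogenesis, the coactivator gene PPARGC1A (PGC-1alpha) was the highest in the everolimus line. It had 34.2 and 13.2 CPM in everolimus-resistant, 5.03 and 5.26 CPM in ridaforolimus-resistant and 6.04 and 7.26 CPM in parental libraries. Both everolimus-resistant libraries lay above the other 4, by unequal amounts. Of all genes, 20.6% had both everolimus-resistant libraries above both parental ones, and 20.4% had them above both ridaforolimus-resistant ones. Its log2 fold change stood at 1.83 ± 0.42 in the everolimus line (adjusted p = 0.332), -0.37 ± 0.43 in the ridaforolimus line (0.743) and -2.20 ± 0.43 between ridaforolimus-resistant and everolimus-resistant cells (0.0709), none of them past the threshold. Its partners NRF1 and ESRRA stood at -0.07 and -0.15 in the everolimus and at -0.16 and -0.34 in the ridaforolimus line. The related coactivator gene PPARGC1B had the highest estimate of the list in the ridaforolimus line, at 0.47 ± 0.26, and stood at 1.14 in the everolimus line. Neither passed the threshold. It had 24.5 and 34.1 CPM in everolimus-resistant, 20.7 and 16.1 CPM in ridaforolimus-resistant and 12.3 and 14.4 CPM in parental libraries. Of the 11 tested regulators, 6 estimates were below 0 in the everolimus (median -0.02) and 7 in the ridaforolimus line (-0.05).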

How the data were processed

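RNA of 6 MDA-MB-231 libraries, 2 per group, was sequenced after a TruSeq Stranded mRNA preparation, per the labels' protocols. The values that the authors deposited are unnormalised counts of reads for each Ensembl gene ID and each library. The submitters' processing notes list Trim Galore (0.6.6), STAR (2.7.9a), HTSeq (0.13.5), DESeq2 and build GRCh38, without saying what each did. How strand was handled, and which annotation was counted, is not given in the sources used here. Symbols came from a name table that matched 37 of 37 members, and positions, strands and lengths from GENCODE 29.

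All 6 libraries in 3 groups were fitted together with edgeR's quasi-likelihood test (version 4.0.16, R 4.3.3, TMM, filterByExpr by group, 3 residual degrees of freedom). Two-sided p-values had Benjamini-Hochberg adjustment over 21223 genes, with a threshold of 0.05, and standard errors and 95% intervals come from the fit. The estimates of the fit were checked on simulated counts with known fold changes. These had the same spread setting for every gene and no shifts between replicates like those seen here, so the check does not cover the calls. The same genes went through limma-voom (3.58.1) and DESeq2 (1.42.0). Shares are of all counts of a library, and a floor is 3 counts. Intervals and floors cover counting error only.

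Members and gene lists were chosen with earlier results of these data known. Every member is accounted for, and nuclear genes are named as listed factors or as the largest estimate of their list at 10 CPM or more.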

Additional observations from a re-analysis of the deposited data

How the results depend on the processing

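No mitochondrial mRNA passed under any other scaling, the stricter filter, limma-voom, the fit to only the groups compared or any fit without a library. With no filter beyond 1 count, 5 passed for the everolimus line, 4 for the ridaforolimus line and 2 between the lines. In all, 493, 1195 and 1362 genes passed in that setting, in the same order. It tests more genes than the fits with the filter on low counts, and their number is not given here. No share of genes called therefore stands beside these counts, and the shares given for the filtered fits do not apply to them. DESeq2 called 1 mRNA for each line, among 147 and 575 genes, and 658 genes between the lines. The reported fits called 1, 68 and 158 genes, in this order of comparisons. In the everolimus line the count was 0 with total counts, with at least 5 CPM in 2 libraries and in the fit to only those groups, which called 127 genes for the ridaforolimus line and 0 between the lines, where the stricter filter called 81. A replicate block called 0, 28 and 49 genes and no mitochondrial mRNA, with medians of the 13 mRNAs of -0.68, -0.45 and 0.38. Across genes, deviations of same-numbered libraries correlated at 0.33, -0.17 and -0.19. With 2 libraries per group these values cannot settle whether the numbers pair the libraries. Leaving out a library gave 0 to 3, 1 to 276 and 19 to 123 called genes, medians of -1.02 to -0.32, -0.71 to -0.17 and 0.25 to 0.47, and differences in share of -2.11 to -0.740, -1.57 to -0.195 and 0.160 to 0.931 points. The cause was not tested. Of 761 estimates of single members under alternatives, 25 differed in sign, none past the threshold, and 17 passed only under an alternative. Besides the mRNAs, these were MT-RNR1 and MT-RNR2 in the ridaforolimus line (adjusted p = 0.0138 and 9.13e-04) and MT-RNR2 and MT-TP between the lines (0.0190 and 7.65e-04), all above 0 and with no filter beyond 1 count, by edgeR. What limits the precision of each was not tested, but 14 tRNAs had 0 counts at this depth.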
